A study of Mus musculus with 31 samples.

Results

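Rgs16, Atp2b2 and the noncoding RNAs Gm35986 and Gm30692 were chosen by their log2 difference between total ChREBP-KO mice and WT littermates in liver, among the lowest on the array. Rgs3, Rgs5, Rgs12, Atp2b1 and Atp2b4 were joined to them as family relatives of Rgs16 and Atp2b2. Of the 19 probes on the array that carry these 9 gene names, 16 are among the 36057 probes of the deposited table, and every one of the 9 genes keeps at least 1 probe. The remaining 3 probes, 1 each of Rgs3, Rgs12 and Atp2b4, did not pass the filter on spots. The choice of members rests on the total ChREBP contrast, so the values of that contrast are given as a description without a test, and tests are kept for the ChREBPβ contrast and for genes that are not members.

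Livers came from 31 male C57BL6/J mice fasted for 24 h and then refed for 18 h with 20% glucose in the drinking water; ages are not given in the sources used here. There were 8 ChREBPβ-deficient mice, in which exon 1b of Mlxipl had been removed with CRISPR/Cas9, and 8 WT littermates. The second line gave 7 total ChREBP-KO mice, which carry an Mlxipl null allele and so lack both isoforms, and 8 WT littermates. Both alleles are carried in every tissue, so a change in liver RNA need not start in the liver. Each liver was hybridized to its own one-color array, and levels are log2 signals after quantile normalization, so that 1 unit is a doubling and levels of different probes cannot be set against each other.

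Proteins of the RGS family shorten signaling by G protein-coupled receptors, because they speed up the hydrolysis of GTP by the G protein α subunit. In the liver, Rgs16 is known as a gene of periportal hepatocytes that follows glucose supply and the daily feeding rhythm. The ATPases encoded by Atp2b genes pump calcium out of the cell across the plasma membrane, and Atp2b2 is best known from the hair cells of the inner ear and from the lactating mammary gland. ChREBP, the product of Mlxipl, is a glucose-responsive transcription factor that binds paired E-box sequences near genes of glycolysis and lipogenesis.

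Signal of the brightest Mlxipl probe separated knockout mice from littermates in both lines. Its log2 signal was between 14.40 and 14.84 in ChREBPβ-deficient mice against 14.88 to 15.33 in WT littermates, and between 13.89 and 14.30 in total ChREBP-KO mice against 15.14 to 15.48. The log2 difference was -0.45 (SE 0.07, limma adjusted p = 0.0152) in the ChREBPβ line and -1.16 (SE 0.07, adjusted p = 8.05e-13) in the total ChREBP line. The other Mlxipl probes gave -0.46 (adjusted p = 0.909) and -0.06 (adjusted p = 0.9998) in the ChREBPβ line and -0.59 (adjusted p = 0.00313) and -0.05 (adjusted p = 0.603) in the total ChREBP line, and where any of them lies relative to the removed parts is not given in the sources used here. In the ChREBPβ line Mlxipl was the single gene called of 23968, or 0.00417%. No probe was called in that line with slide or replicate number as a fixed block, within either scan day, or without some single mice.

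Rgs16, read by 1 probe at chr1:155592497-155592556 (mm9, plus strand), was abundant wherever ChREBP was present. Its log2 signal was 11.54 at the lowest, 14.22 at the median and 15.28 at the highest in WT littermates of the ChREBPβ line. ChREBPβ-deficient mice had 11.23, 14.27 and 14.69 by the same measures. WT littermates of the total ChREBP line had 12.36, 14.40 and 15.46. These 3 groups covered each other almost completely. The 7 total ChREBP-KO mice had 6.08, 7.31, 7.69, 8.02, 8.17, 8.29 and 9.40, and every one of them lay below every other mouse. The difference from WT littermates was -6.37 (SE 0.55), an 82.7-fold lower signal with a 95% interval of 38.0 to 180.1. Among the differences of 36059 probes it ranked first of the falls. Every total ChREBP-KO array still had the Rgs16 spot well above background.

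Upstream of the RefSeq start of Rgs16, on GRCm38.p6 at chr1:153740103-153740352 (plus strand), lie the 250 bases shown here, with the match to the searched letters in capitals, because this is the promoter of the transcript that differed most.
Rgs16: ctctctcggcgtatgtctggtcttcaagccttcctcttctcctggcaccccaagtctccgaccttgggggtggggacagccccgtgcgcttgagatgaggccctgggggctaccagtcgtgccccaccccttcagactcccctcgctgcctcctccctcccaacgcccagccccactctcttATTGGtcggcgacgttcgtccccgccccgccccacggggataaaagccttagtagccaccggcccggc
Next, 3 sets of letters were searched on both strands of the window from 250 bases before to 50 bases after each start: the E-box CACGTG, the carbohydrate response element (a pair of E-box-like sequences with a spacer, to which ChREBP binds), and the letters CCAAT. The letters CCAAT were found once, at position -68 from the Rgs16 start on the minus strand, and the others were not found in this window. Of 32851 promoter windows, 7.15% hold CACGTG, 0.56% the paired element and 37.41% CCAAT. Windows were given for 8 of the 9 members, 14 in all. CACGTG was in 1 of these, a window of Atp2b1, CCAAT in 3 and the paired element in 0.

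Atp2b2, with probes at chr6:113698347-113698406 and chr6:113755470-113755529 (mm9, minus strand), separated the total ChREBP genotypes and also differed between the lines, with overlap. At the first probe the total ChREBP-KO mice had 5.07, 5.13, 5.38, 5.46, 5.71, 5.75 and 6.48. Their WT littermates ranged from 9.37 to 11.40 with a median of 10.70. WT littermates of the ChREBPβ line ranged from 7.07 to 9.92 with a median of 8.38, and ChREBPβ-deficient mice from 7.38 to 9.86 with a median of 8.01. Total ChREBP-KO mice were therefore lowest without overlap, the mice of the ChREBPβ line lay in between, and WT mice of the total ChREBP line were highest, with some overlap with the upper end of the ChREBPβ line. The difference between total ChREBP-KO mice and WT littermates was -4.96 (SE 0.40), or 31.2-fold with a 95% interval of 17.7 to 55.0. The second probe, nearer the 5′ end of the gene, gave -3.06 (SE 0.30), and the groups did not overlap there either. The 2 probes followed each other closely over the 24 arrays outside the total ChREBP-KO group (r = 0.98 after removal of group means).

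Between the WT groups of the 2 lines, Atp2b2 was higher in the total ChREBP line by 2.15 (SE 0.39) at the first probe and by 1.78 (SE 0.29) at the second. Both scan days showed it, with 2.43 and 1.86 at the first probe. No other member probe differed by as much between the WT groups, where the rest ranged from -0.79 to 0.93. Signal of red blood cell markers moved with the same division, with the summed log2 signal of 4 genes at 15.50 to 16.57 in WT mice of the ChREBPβ line and 16.83 to 17.33 in those of the total ChREBP line, and so did pericentral markers, at 18.07 to 18.44 against 17.59 to 18.09. Dbp was at 8.22 to 15.26 against 9.05 to 10.95, with 4 of the 8 WT mice of the ChREBPβ line above all 8 of the other line. The part of these genes in the Atp2b2 values was not tested. Line and colony cannot be told apart in this comparison.

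Gm35986 is a long noncoding RNA whose gene overlaps that of Elovl6, the fatty acid elongase of lipogenesis, in RefSeq (GRCm38.p6). The overlap is 3 bases at the starts of the genes, which run in opposite directions. The array reads it with the 60-base probe at chr3:129230421-129230480 (mm9, minus strand), and Gm30692 with the probe at chr8:25527319-25527378 (plus strand); they are shown because these noncoding RNAs are known here only by the sequences that bind them.
Gm35986: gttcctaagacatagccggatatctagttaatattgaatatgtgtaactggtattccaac
Gm30692: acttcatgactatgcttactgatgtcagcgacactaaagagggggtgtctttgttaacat
The 250 bases before the Elovl6 start, at chr3:129532136-129532385 (GRCm38.p6, plus strand), lie inside the Gm35986 gene, which is read on the other strand. They hold none of the 3 sets of letters and so no capitals.
Elovl6: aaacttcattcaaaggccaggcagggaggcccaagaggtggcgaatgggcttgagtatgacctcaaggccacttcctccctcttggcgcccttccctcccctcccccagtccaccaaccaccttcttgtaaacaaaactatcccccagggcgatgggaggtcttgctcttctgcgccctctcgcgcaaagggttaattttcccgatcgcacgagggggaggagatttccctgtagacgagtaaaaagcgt

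Gm35986 had log2 signals of 5.39, 6.04, 6.26, 6.34, 6.39, 6.46 and 6.89 in the 7 total ChREBP-KO mice. In WT littermates it ranged from 9.85 to 13.27 with a median of 11.75, so that no mouse of one genotype reached the other. The difference was -5.56 (SE 0.40), 47.3-fold with a 95% interval of 26.8 to 83.6. Elovl6, the overlapping neighbor, differed in the same direction by -3.68 (SE 0.33, limma adjusted p = 5.84e-10). In the ChREBPβ line Gm35986 ranged from 9.91 to 12.18 in ChREBPβ-deficient mice and from 10.19 to 11.72 in WT littermates, and Elovl6 differed by 0.13 (SE 0.32, adjusted p = 0.9998).

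Gm30692 was the leading transcript with the widest spread inside the total ChREBP-KO group. Of these mice, 5 had signals between 4.62 and 5.38, and the others had 7.39 and 8.49. The spot was well above background in 5 of the 7. WT littermates ranged from 9.71 to 12.03 with a median of 10.62, still above all 7. The difference was -4.97 (SE 0.50) and became -5.42 without the total ChREBP-KO mouse at 8.49, replicate 1. Along the chromosome the nearest gene tested, 1810011O10Rik (now Tcim), has probes 20.3 and 20.8 kb away, where total ChREBP-KO mice differed from littermates by -2.36 (SE 0.22) and -2.64 (SE 0.25), with limma adjusted p = 9.73e-10 and 1.28e-09. Gm30845, 25.5 kb away, differed by -0.26 (SE 0.23, adjusted p = 0.447). Near Atp2b2, Sec13 differed by -0.21 (adjusted p = 0.00967) and Tatdn2 by 0.36 (adjusted p = 0.0253). Ghrl and Irak2 beside them were not called.

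**Figure D1:**
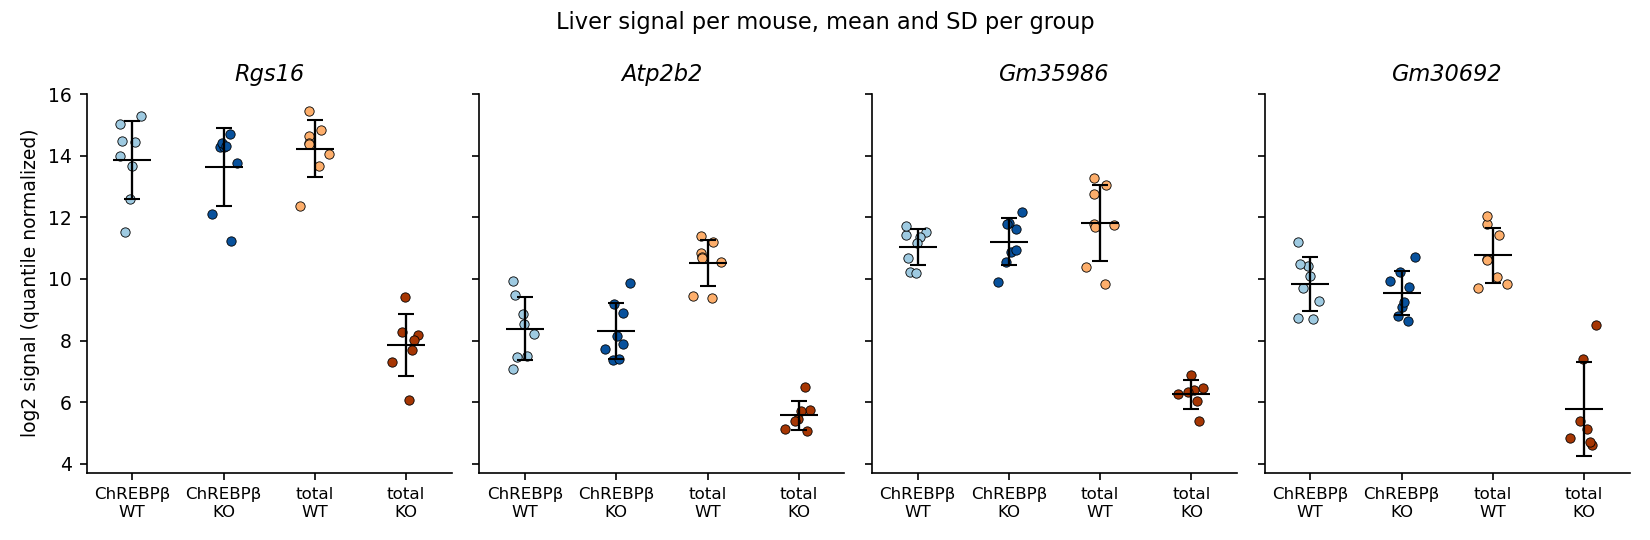
Log2 signal of Rgs16, Atp2b2 (first probe), Gm35986 and Gm30692 in each liver. Every point is 1 mouse, bars are the group mean and SD, and the horizontal axis gives the 4 genotype groups; the 7 total ChREBP-KO mice lie below every other mouse in all panels, and the WT mice of the 2 lines differ most for Atp2b2.

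Other members of the families showed smaller differences in total ChREBP-KO mice, and these depended on the probe. At chr5:35376032-35376091 (mm9), the 3′ probe of Rgs12, a large RGS protein with PDZ and GoLoco domains, every total ChREBP-KO mouse lay between 8.15 and 8.63 and every WT littermate between 8.68 and 10.06. The difference was -1.14 (SE 0.14), or 2.20-fold. At chr5:35309330-35309389, toward the 5′ end, the same gene differed by 0.01 (SE 0.07), and the groups covered each other. Another, dim probe of the gene differed by -0.37 (SE 0.10) and was well above background on only 1 of 7 total ChREBP-KO arrays. Its difference was -1.35 with the background-subtracted signal, and whether the probes read different transcripts was not tested. Over all 16 member probes, 6 had every total ChREBP-KO mouse below every WT littermate, beside 4.14% of all probes, and 0 had every one above, beside 3.26%; these counts only describe the choice of members.

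For Rgs3, probes 1 to 3, annotated to one RefSeq transcript, and probe 4, annotated to another, behaved as unrelated measurements. The first 3 correlated with each other at r = 0.97 to 0.996 over the 24 arrays, and each correlated with probe 4 at r between -0.03 and 0.00. The first 3 also varied widely from mouse to mouse, with the brightest ranging from 9.86 to 12.32 in WT littermates of the ChREBPβ line and from 9.15 to 11.53 in those of the total ChREBP line. Total ChREBP-KO mice had 9.02 to 10.34, overlapping the lower part of the range of their littermates. The difference was -0.47 (SE 0.36), and it was -1.03 within the first scan day and 0.09 within the second. Probe 4 differed by 0.15 (SE 0.13).

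Rgs5, a marker of pericytes in many organs, differed by 0.20 (SE 0.16) between total ChREBP-KO mice and WT littermates. Markers of stellate cells and pericytes had a summed log2 signal of 12.54 to 13.33 in total ChREBP-KO mice and 11.94 to 12.79 in littermates. Of these markers 2 of 8 were called higher, beside 17.3% of all genes, and their part in the Rgs5 value was not tested. Atp2b1, the widely expressed plasma membrane calcium pump, was higher by 0.27 (SE 0.06) and 0.34 (SE 0.07) at its 2 probes, the opposite direction to Atp2b2. Its groups overlapped, with 9.18 to 9.68 against 8.92 to 9.28 at the brighter probe. Atp2b4 was at 4.77 to 5.18 in total ChREBP-KO mice and 4.78 to 5.16 in littermates, a difference of 0.04 (SE 0.08). In bulk RNA a smaller share of a cell type and less RNA per cell cannot be told apart.

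**Figure D2:**
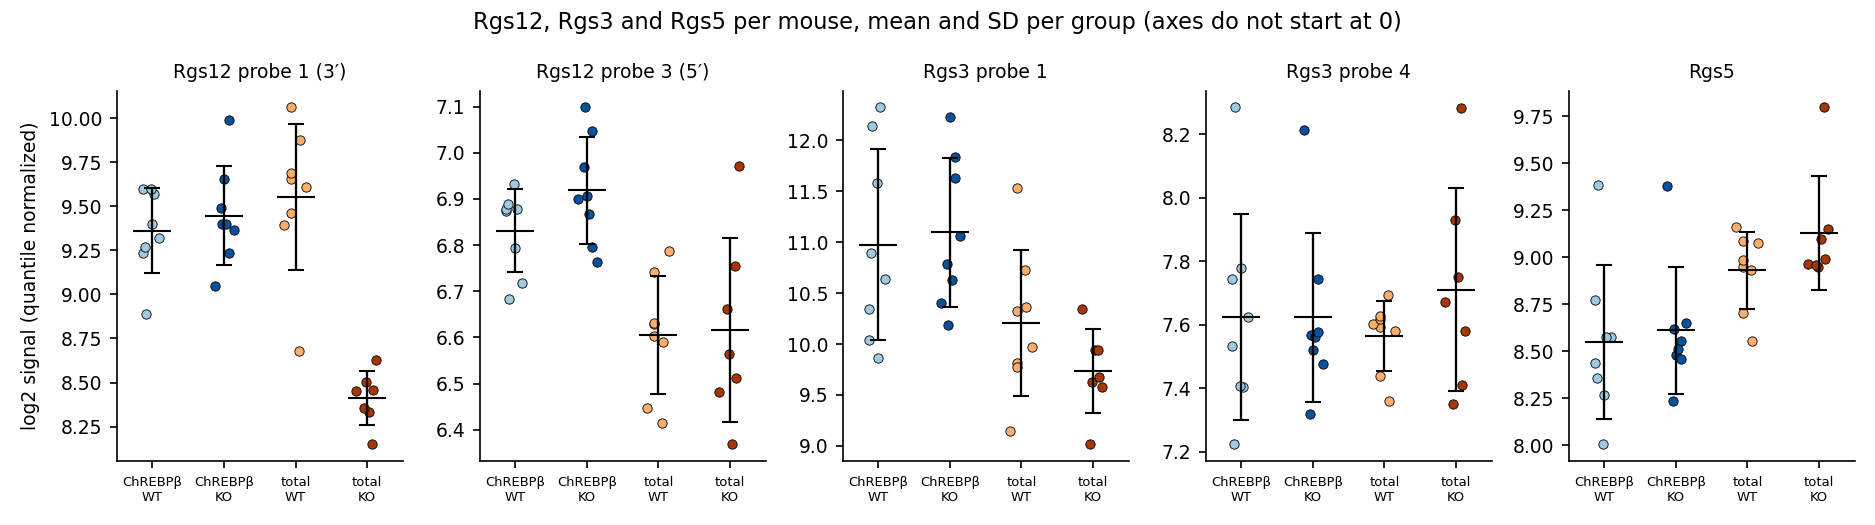
Log2 signal per mouse of the outer probes of Rgs12, of probes 1 and 4 of Rgs3, and of Rgs5, with group mean and SD; the vertical axes differ and do not start at 0. The 3′ probe of Rgs12 separates total ChREBP-KO mice, at 8.15 to 8.63, from all WT littermates, while its 5′ probe and the other panels overlap.

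In the ChREBPβ line, which had no part in the choice of members, none of the 16 member probes was called, beside 0.00277% of all probes. The tool was limma with Benjamini-Hochberg adjustment over all probes, where the lowest adjusted p among members was 0.9998 and 0 of 16 had an unadjusted p under 0.05, beside 4.98% of all probes. The groups overlapped for all 16, while 0.0139% of all probes had every ChREBPβ-deficient mouse below every littermate and 0.00832% every one above. Differences were -0.24 (SE 0.53) for Rgs16, -0.08 (SE 0.39) and -0.05 (SE 0.29) for Atp2b2, 0.18 (SE 0.39) for Gm35986 and -0.28 (SE 0.49) for Gm30692.

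How large a difference these data leave room for varied between members. The 95% interval of Rgs16 ran from -1.33 to 0.84, that of Gm30692 from -1.27 to 0.71, that of Gm35986 from -0.62 to 0.97 and that of the first Atp2b2 probe from -0.87 to 0.72. A loss of the size seen in total ChREBP-KO mice lies far outside each of these. For the steadier members the intervals were narrow, at -0.17 to 0.08 for the brighter probe of Atp2b1, -0.20 to 0.37 for the 3′ probe of Rgs12 and -0.08 to 0.23 for Atp2b4. The median difference over the members was 0.05, against -0.00067 over all probes. Single mice turned the sign of small differences, and for Rgs16 the value was 0.10 without ChREBPβ-deficient replicate 7, which had the lowest signal of that group.

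**Figure D3:**
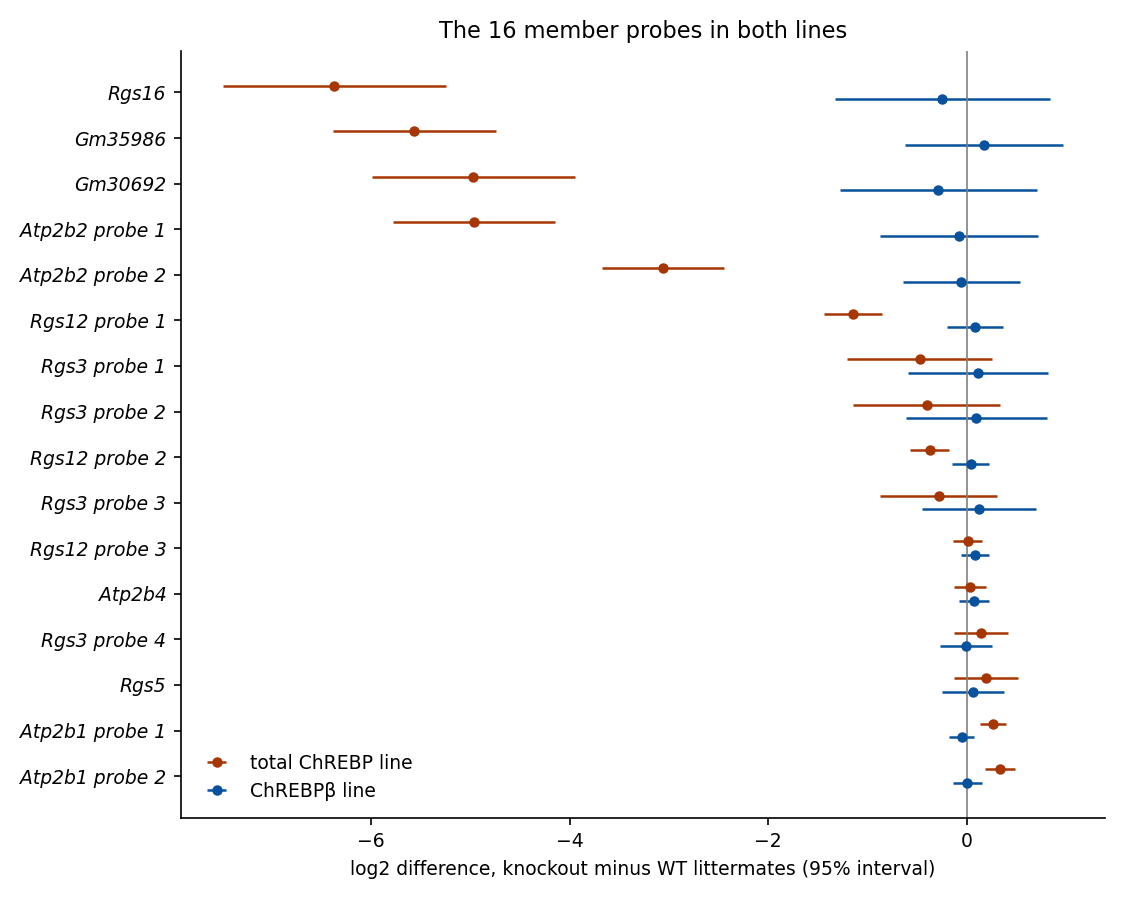
Log2 difference between knockout mice and WT littermates for the 16 member probes, with 95% intervals, in the total ChREBP line (brown) and the ChREBPβ line (blue). Intervals of the ChREBPβ line include 0 for all 16. Those of the 5 probes of Rgs16, Gm35986, Gm30692 and Atp2b2 in the total ChREBP line end at -2.45 or lower. These genes were chosen on the total ChREBP contrast, so their intervals there are a description and not a test.

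The leading transcripts varied more between mice of one genotype than nearly all other probes. Over the 24 arrays outside the total ChREBP-KO group, the SD around the group means was 1.16 for Rgs16, 0.90 for Gm35986, 0.90 for Atp2b2 and 0.84 for Gm30692, compared with a median of 0.16 for all probes. These lie at or above the 99.6th percentile. Within the 16 mice of the ChREBPβ line, Rgs16 spanned a 16.6-fold range and Atp2b2 a 7.23-fold range. Among the relatives, the 2 probes of Atp2b1 spanned 1.25-fold and 1.38-fold. Rgs3 probes annotated to one transcript varied nearly as widely as the leading transcripts. Their SD was 0.80, 0.82 and 0.66 over the 24 arrays, and the brightest spanned 5.52-fold in the 16 mice. The remaining Rgs3 probe had an SD of 0.25.

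Relations among the 4 leading transcripts were then compared in those 16 mice. Deviations from genotype means were compared for 18 pairs, by permutation of the mice within genotype with 100000 resamples and adjustment over the 18. Atp2b2 and Gm30692 varied together (r = 0.87, adjusted permutation p = 0.0006; rho = 0.81, adjusted p = 0.003), and the relation held within the scan days (r = 0.79 and 0.93) and without the 2 mice farthest from the median of Atp2b2 (r = 0.78). Gm35986 followed Pklr, the pyruvate kinase of liver and an established ChREBP target (r = 0.96, adjusted p = 0.00036; rho = 0.96, adjusted p = 0.00018; 0.99 and 0.93 within the scan days; 0.94 without 2 mice). Rgs16 followed Gm35986 (r = 0.62, adjusted p = 0.0409) and Pklr (r = 0.67, adjusted p = 0.0273) by r, but not by rank, where rho was 0.46 and 0.51 with adjusted p = 0.18 and 0.152. Without 2 mice these r were 0.62 and 0.69. With replicate number as a block they were 0.27 and 0.35.

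The other pairs of leading transcripts did not pass the test over all 16 mice. Rgs16 against Atp2b2 had r = -0.08 (adjusted permutation p = 0.944), Rgs16 against Gm30692 had r = -0.35 (adjusted p = 0.359) and Gm35986 against Gm30692 had r = 0.02 (adjusted p = 0.946). Atp2b2 against Gm35986 had r = 0.37 (adjusted permutation p = 0.343). Against Mlxipl signal the 4 leading transcripts had r from -0.06 to 0.24, with the lowest adjusted p at 0.643. These values moved with the setting, and for Gm30692 and Mlxipl r was 0.70 with replicate number as a block and -0.78 within the 10 mice of high Dbp described next.

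Dbp, an output gene of the circadian clock, fell into separate clusters in these mice, so an r over all 16 in part reflects the gap between them. Over all 16, Gm30692 against Dbp had r = -0.86 (adjusted permutation p = 0.0006, rho = -0.84, adjusted p = 0.00135). Atp2b2 against Dbp had r = -0.79 (adjusted permutation p = 0.00373, rho = -0.72, adjusted p = 0.0173). Rgs16 and Gm35986 had r = 0.45 and 0.10 with Dbp (adjusted permutation p = 0.243 and 0.944). Of the 16, 6 mice (2 ChREBPβ-deficient and 4 WT) had log2 signals of 8.22 to 10.05, and 10 had 11.83 to 15.26. Within the 6 mice of low Dbp, r with Dbp was -0.88 for Gm30692 and -0.76 for Atp2b2. Within the 10 of high Dbp it was -0.60 and 0.17, while Rgs16 and Gm35986 had 0.84 and 0.86 there, against -0.27 and -0.38 in the 6. These are descriptions of small sets. Within the same clusters Atp2b2 and Gm30692 had r = 0.93 and 0.55, and Gm35986 and Pklr 0.96 and 0.99. All 6 pairs of the leading transcripts had r above 0 in the 6 mice of low Dbp, with 0.71 for Rgs16 and Atp2b2, 0.64 for Rgs16 and Gm30692 and 0.74 for Gm35986 and Gm30692. In the 10 mice of high Dbp these 3 were 0.19, -0.56 and -0.31.

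**Figure D4:**
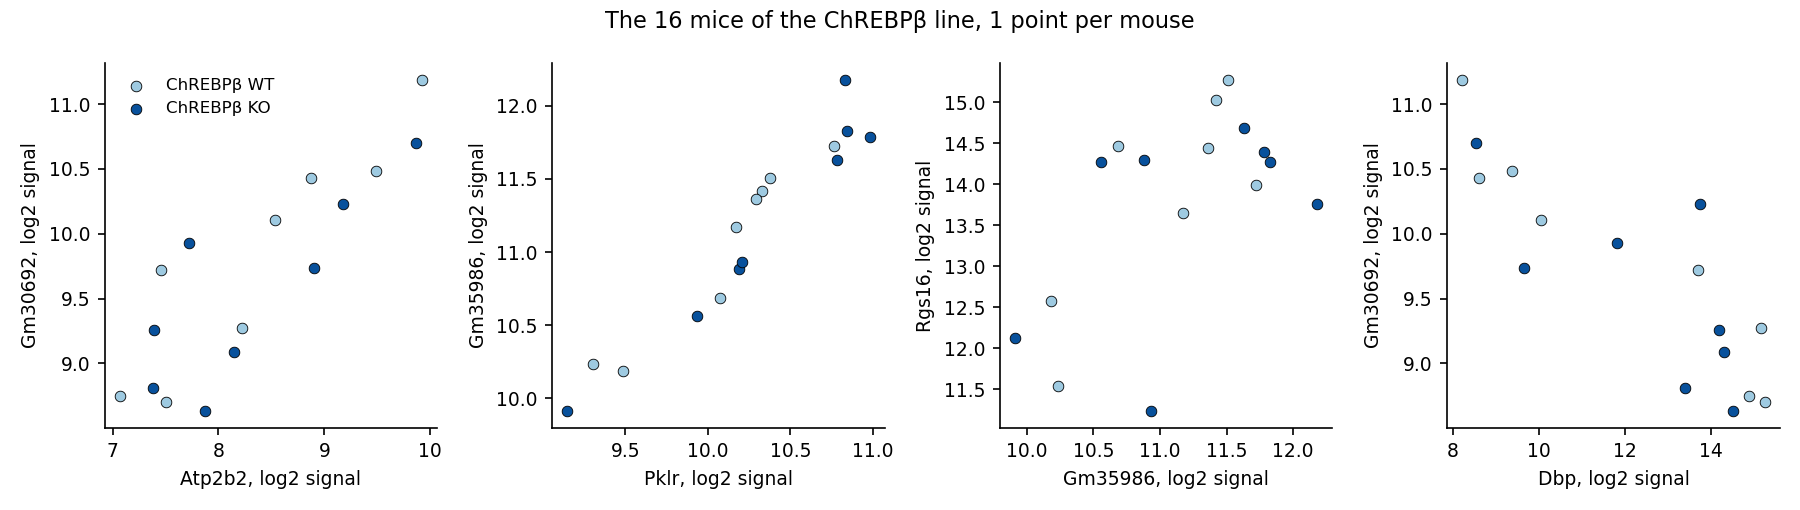
Log2 signals of pairs of transcripts in the 16 mice of the ChREBPβ line, 1 point per mouse, with WT littermates in light and ChREBPβ-deficient mice in dark blue. Gm30692 rises with Atp2b2 and Gm35986 with Pklr in both genotypes, Rgs16 follows Gm35986 loosely, and Dbp leaves a gap between 10.05 and 11.83.

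The genes whose signals were most like those of each leading transcript, by r of group-centered values over 24 arrays, differed between the 4. For Rgs16 they were Txnip (r = 0.84), a glucose-responsive regulator of redox state, then 2900089D17Rik, Gm9909, Npc1 and Ulk1 (0.82 to 0.84). For Gm35986 they included Pklr (0.96), its chromosomal neighbor Hcn3, Pdk1 and Gpi1 (0.94 to 0.95), of which Pklr, Pdk1 and Gpi1 encode enzymes of glucose use. For Gm30692 they were Slc16a1 (0.91), which encodes a monocarboxylate transporter, Pnpla5, Kpnb1, Tars and Pnpla3 (0.89 to 0.91). For Atp2b2 they were Pkhd1 (0.89), NAP112819-1, Ap3b1, Nop56 and Celsr1 (0.85 to 0.87). These orders are descriptions, and the 24 mice shared a feeding protocol, scan days and in part slides.

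The 10 probes with the lowest differences in total ChREBP-KO mice and no overlap between groups also belong to Pnpla5 (-5.74), Thrsp (-4.82 and -4.63), G6pc (-4.79), Hcn3 (-4.27) and Pklr (-3.99). Rgs16, Gm35986, Gm30692 and Atp2b2 held ranks 1, 3, 4 and 5 of the falls, and the second Atp2b2 probe rank 35. The Pnpla5 spot was well above background on 3 of 7 total ChREBP-KO arrays. In the ChREBPβ line those of Pnpla5, Thrsp, G6pc, Hcn3 and Pklr differed by -0.21 to 0.28.

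Genes around the members in G protein signaling were called in both directions in total ChREBP-KO mice, where 17.3% of all genes were called higher and 17.1% lower (33.9% in either direction, and 29.1% of probes). Of 13 other RGS family genes, Rgs10 rose (0.31, SE 0.12, limma adjusted p = 0.0479), Rgs7 fell (by 0.90, SE 0.16, adjusted p = 9.74e-05, at its more changed probe) and 11 did not pass the test. Rgs10 was called under 6 of 13 other settings and in 13 of the 31 fits that left out 1 array, and Rgs7 under 12 and in all 31. Of 25 G protein subunits, 10 rose and 2 fell. Gng10, 1 of these 2, was called under 5 of 13 other settings and in 9 of the 31 fits that left out 1 array. Gnai1, an inhibitory α subunit, rose by 1.32 (SE 0.24, adjusted p = 8.32e-05) and Gnb4 by 0.58 (SE 0.10, adjusted p = 2.37e-05), while Gng11 fell by 0.31 (SE 0.09, adjusted p = 0.0112). Of 11 kinases, arrestins and other regulators of G protein signaling, 3 fell and 1 rose. Grk5 was lower by 1.01 (SE 0.28, adjusted p = 0.0055), Gpsm2 lower by 0.46 (SE 0.07, adjusted p = 2.93e-06) and Gpsm1 higher by 0.38 (SE 0.09, adjusted p = 0.00226). Of 14 receptors of the liver that couple to G proteins, 4 rose and 3 fell, among them S1pr1 (0.55, adjusted p = 0.000853) and the glucagon receptor Gcgr (-0.28, adjusted p = 0.000358).

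Calcium genes were called in both directions in total ChREBP-KO mice, beside 17.3% of all genes called higher, 17.1% lower and 33.9% in either direction. Of 5 other calcium ATPases 2 rose, Atp2b3 by 0.23 (SE 0.09, adjusted p = 0.042) and Atp2c1, the pump of the Golgi, by 0.24 (SE 0.07, adjusted p = 0.00911) at 1 of its 5 probes, and none fell. Atp2b3 was called under 6 of 13 other settings, and not with normexp, and Atp2c1 under 11. Of 8 partners of the pumps 4 rose and 3 fell, among them Calm3, which encodes a calmodulin (-0.28, SE 0.07, adjusted p = 0.00232), and Rassf1 (0.55, SE 0.10, adjusted p = 6.45e-05, at its more changed probe). Of 20 genes of calcium release and entry, 5 rose and 2 fell, with the inositol trisphosphate receptors Itpr1 at -0.69 (SE 0.10, adjusted p = 2.32e-06), Itpr3 at 0.47 (SE 0.14, adjusted p = 0.00902) and Itpr2 at 0.38 (SE 0.08, adjusted p = 0.000699). Median differences of these 3 lists were 0.23, 0.22 and 0.03 over their probes, against 0.01 over all probes. Scaling the median signal of each array to its 75th percentile moved the split of all called probes from 5229 higher and 5248 lower to 6229 and 4067, and the RGS family then had 4 genes higher and 1 lower, and the calcium ATPases 4 higher and 0 lower.

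**Figure D5:**
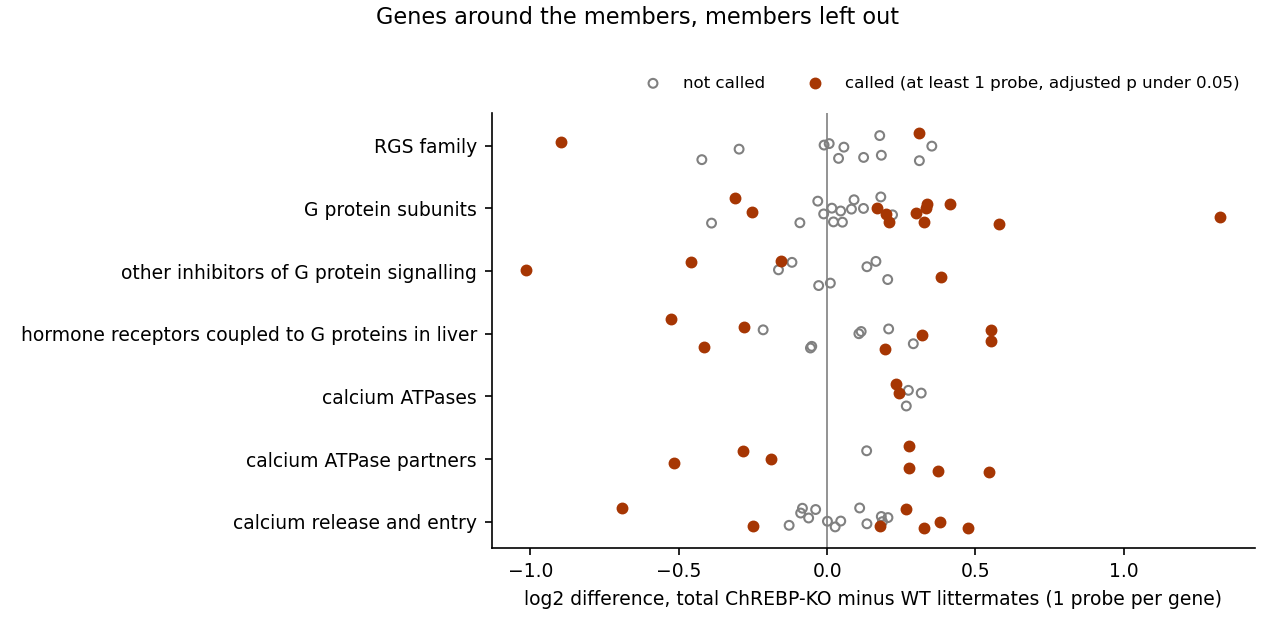
Log2 difference between total ChREBP-KO mice and WT littermates for genes of G protein signaling and calcium handling, members left out. Each point is 1 gene (the brightest probe, or for called genes the called probe with the largest change); filled points passed an adjusted p under 0.05, and they lie from -1.01 to 1.32, on both sides of 0 in every list but the calcium ATPases.

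Clock genes and established ChREBP targets are given beside the members because both are background to Rgs16. Among all genes, 17.3% were called higher and 17.1% lower in total ChREBP-KO mice. Of 18 clock genes, 8 rose and 5 fell in total ChREBP-KO mice, led by Dbp (3.19, SE 0.99, adjusted p = 0.0143), Bhlhe40 (-2.08, SE 0.23, adjusted p = 2.36e-08), Per1 (1.50, SE 0.28, adjusted p = 0.000157) and Per3 (1.42, SE 0.53, adjusted p = 0.0402). Per3 was called under 8 of 13 other settings and in 21 of the 31 fits that left out 1 array. It was not called with normexp background correction, without a filter on spots, with spots passing on all arrays or within either scan day. Without single arrays the count of called clock genes ranged from 9 to 14. Within scan day 2 the 13 called clock genes became 3, without Dbp. Dbp was at 12.23 to 14.04 in total ChREBP-KO mice and 9.05 to 10.95 in WT littermates, and its part in the member values was not tested. All 14 ChREBP targets fell, a list drawn up with results of these samples known and so no independent evidence, with a median of -2.11 over 30 probes. In the ChREBPβ line none of the 9 lists held a called gene.

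Markers of pericentral hepatocytes moved with the total ChREBP genotype, and the ranges of periportal markers overlapped. The summed log2 signal of 7 pericentral markers was 18.30 to 18.68 in total ChREBP-KO mice and 17.59 to 18.09 in WT littermates. Of these 7 genes 5 were called higher, beside 17.3% of all genes. WT mice of the ChREBPβ line had 18.07 to 18.44, overlapping both ranges. Markers of periportal hepatocytes, where Rgs16 is known to be expressed, had 17.10 to 18.10 in total ChREBP-KO mice against 17.13 to 18.02 in WT littermates. Here 2 of 7 were called lower, beside 17.1% of all genes. Hepatocyte markers were at 19.72 to 19.96 in all 4 groups, with 2 of 6 called higher in total ChREBP-KO mice. The part of these markers in the member values was not tested.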

How the data were processed

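Liver RNA of 31 mice was measured on one-color Agilent arrays, and the sample titles and characteristics gave group and replicate. The authors deposited scanner files of Agilent Feature Extraction 10.10.1.1 with spot intensity, and a table of log2 values, quantile normalized and reduced to the median per probe; its log base was settled against the scanner intensities. Log2 of the median signal was used here without background subtraction, which understates differences of dim probes. Spots passing the authors' weights on at least 26 arrays, or 6 of 1 group, were kept and quantile normalized (36059 probes, 23968 gene names; correlations between arrays 0.980 to 0.999). The 4 groups entered 1 limma 3.58.1 model (R 4.3.3), with Benjamini-Hochberg adjustment and a threshold of 0.05; a list gene was called when at least 1 probe passed. Relations were tested by two-sided permutation within genotype in numpy 2.4.6, where 1e-05 is the smallest p possible. The fits were tested on simulated data.

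Members and lists were chosen with earlier results of these data known. Named genes are all members, up to 4 called genes per list, the 10 lowest differences without overlap, the 5 genes most like each leading transcript, tested neighbors within 100 kb, Mlxipl, Pklr and Dbp; 1 value per gene is that of the brightest probe unless stated. Elovl6 was added after its values were seen. Some genes that this rule names are not reported here. Alternatives covered signal, scaling, background, filter, slide, scan day, replicate number, single arrays and the Mann-Whitney test. Promoter sequences are those of RefSeq (GRCm38.p6) and array positions those of mm9. Litters, cages and order of collection are not given in the sources used here. Replicate 3 of the total ChREBP-KO mice was not analysed here.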

Additional observations from a re-analysis of the deposited data

Results flagged for a closer look

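Of 64 groups of member signals, 2 held a mouse far from the rest, where chance flags about 1 group in 20. Both concerned Rgs5. ChREBPβ-deficient replicate 2 was at 9.38, with the next mouse at 8.65, and total ChREBP-KO replicate 7 was at 9.80, with the next at 9.15. Without them the Rgs5 differences were -0.05 in the ChREBPβ line and 0.09 in the total ChREBP line. WT littermate replicate 2 of the ChREBPβ line was as high, at 9.39 with the next WT mouse at 8.77, but was not flagged. Without that WT mouse alone the difference in the ChREBPβ line was 0.18.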

How the results depend on the processing

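Of the 16 member probes 0 were called in the ChREBPβ line under all 43 settings fitted with limma, where the lowest adjusted p was 0.755, and 0 list genes were called there. The exact Mann-Whitney test had a smallest p of 0.000155 there, too high to pass adjustment with so few probes separating the groups, so its count of 0 carries no weight. In the total ChREBP line 35 list genes rose and 33 fell; the 2 counts together were 33 within scan day 2, and 59 to 70 without single arrays. The RGS family count of 2 became 5 when processed signal, or median signal, was scaled to the 75th percentile, 1 without a filter, with slide, scan day or replicate number as a fixed block or with the Mann-Whitney test, 0 within scan day 2, and 1 to 5 without single arrays. The calcium ATPase count of 2 became 4 with the scaled median signal or the replicate block, 1 with normexp, without a filter, with slide as a fixed block, within scan day 2 or with the Mann-Whitney test, 0 with spots passing on all arrays or within scan day 1, and 1 to 4 without single arrays. Member probes lower in total ChREBP-KO mice numbered 10 (10 to 11 without single arrays), and those higher in the WT mice of that line 9 (8 to 11); with spots passing on all arrays, which keeps fewer probes, these were 4 and 3. The cause of the other changes was not tested.

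Small differences in the ChREBPβ line changed sign. Probe 4 of Rgs3 (-0.00) gave 0.031 with processed signal, 0.016 with scaled median signal, 0.00046 with normexp, 0.00086 with scan day as a block and 0.047 within scan day 2. The dimmer Atp2b1 probe gave -0.0073 with normexp and -0.028 within scan day 1. With slide as a fixed block Rgs3 probes 1 to 3 gave -0.20, -0.21 and -0.17, and the dim Rgs12 probe -0.0012. Within scan day 1 the Rgs3 probes gave -0.14, -0.15 and -0.13, Rgs5 -0.046 and Gm35986 -0.44; within scan day 2 Atp2b2 gave 0.15 and 0.11. Without single arrays the ranges were -0.58 to 0.10 for Rgs16, -0.043 to 0.31, -0.067 to 0.30, -0.021 to 0.28 and -0.087 to 0.092 for Rgs3, -0.047 to 0.18 for Rgs5, -0.0053 to 0.086 for the dim Rgs12 probe, -0.30 to 0.14 and -0.20 to 0.14 for Atp2b2 and -0.025 to 0.034 for the dimmer Atp2b1 probe.

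The leading differences in total ChREBP-KO mice kept their direction in every setting. Those of Atp2b2 were -4.13 and -2.41 with normexp and -5.76 and -3.59 with background-subtracted signal, and that of Gm30692 was -6.04 with the latter. Replicate numbers were not taken to pair the mice, since this required r over 0.1 in every pair of same-numbered littermates. In the ChREBPβ line r was -0.16 to 0.53, with 6 of 8 pairs over 0.1 and 4 of 8 correlating best with their own number, which is a hint of pairing from the data. In the total ChREBP line r was -0.21 to 0.24, with 2 of 7 pairs over 0.1 and 1 of 7 best with its own number. With the replicate block 0 member probes were called in the ChREBPβ line, r was 0.85 for Atp2b2 and Gm30692 and 0.94 for Gm35986 and Pklr, but 0.27 for Rgs16 and Gm35986 and 0.35 for Rgs16 and Pklr; against Mlxipl it was 0.70 for Gm30692, 0.47 for Atp2b2, -0.29 for Rgs16 and -0.30 for Gm35986. The comparison within mice of low and of high Dbp was chosen after seeing the data; there Atp2b2 and Dbp had r = 0.17 in the mice of high Dbp.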
